A study of Homo sapiens with 12 samples.

Results

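The amino acid transporters described here are 9 genes named together as carriers of the plasma membrane: SLC7A5, SLC3A2, SLC7A11, SLC7A1, SLC1A4, SLC1A5, SLC38A1, SLC38A2 and SLC43A1. They were found in the bead array table by their platform gene symbols, which gave 11 probes among 47224. Of these, 7 probes of 6 genes were kept because their signal stood above the negative controls (detection p under 0.05) on at least 3 arrays. The cells were MCF10A, a non-tumorigenic human mammary epithelial line, with 3 arrays in each of 4 groups. Sample titles distinguish Ctr MCF10A.B2 (control below), ErbB2, Cas and Cas/ErbB2, and every group is labelled as modified cells. ErbB2, a receptor tyrosine kinase, belongs to the epidermal growth factor receptor family, and Cas stands for p130Cas, an adaptor protein of focal adhesions. In the array names the M arrays carry a minus sign in control and a plus sign in ErbB2 cells, and the C arrays a minus sign in Cas and a plus sign in Cas/ErbB2 cells. The name MCF10A.B2 is known for MCF10A cells with a chimeric ErbB2 receptor that a synthetic dimerizer activates. The labels do not give how either protein was raised or activated, whether the signs are states of the same cells, what the control cells carry, or whether the arrays came from separate cultures. The p-values below therefore set each difference against how far these samples vary within groups, and that variation may be technical.

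Amino acid carriers of the SLC families set which amino acids a cell takes up and which it trades for others. SLC7A5, known as LAT1, exchanges large neutral amino acids such as leucine across the membrane and needs SLC3A2, the heavy chain CD98 or 4F2hc, to reach the cell surface. SLC7A11, known as xCT, pairs with the same heavy chain and exchanges cystine for glutamate, while SLC43A1, or LAT3, carries leucine and related amino acids without it. SLC7A1, or CAT1, carries arginine and lysine. SLC1A5, or ASCT2, and SLC1A4, or ASCT1, exchange small neutral amino acids, with glutamine among those of SLC1A5, and SLC38A1 and SLC38A2 take up glutamine and alanine together with sodium. Several of these genes are known targets of the transcription factor ATF4, which cells use when amino acids run short.

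The control arrays stood apart before any comparison was made. Their names mark hybridization III (replicates 1 and 2) or II (replicate 3), and the other arrays carry no such mark. Control arrays had median raw signals of 171 to 202 and the other 9 had 477 to 623, while 19076 to 19416 probes were detected on the former against 12864 to 15984 on the latter. Hybridization and control group cannot be told apart, and the comparisons against control share the same 3 arrays. Cas/ErbB2 replicate 3 had the highest mean raw signal (2095, against 1097 to 1706 on the other 11). Arrays of the same group correlated at 0.959 to 0.992, and 0 pairs were identical. The epithelial markers KRT5, KRT14, CDH1, EPCAM and LAMB3, all 5 with a named probe of the 8 listed, were detected on 12 arrays. Of the markers of other cell types, PTPRC, CD3E, CDH5, VWF, COL3A1, PDGFRA and PDGFRB were detected on 0 arrays. COL1A2 and LUM were detected on 3 arrays, COL1A1 on 11, and CD68, PECAM1 and DCN on 12. The summed normalized signal of the 7 fibroblast markers was 3000 to 3786 in control, 1462 to 2115 in ErbB2 cells, 2151 to 2472 in Cas cells and 1303 to 1519 in Cas/ErbB2 cells, so that it was highest in control, as SLC7A5 and SLC3A2 were. That of the 4 blood markers was 2678 to 3313, 3765 to 4313, 2507 to 3222 and 5887 to 8031 in the same order, with CD68 detected on 12 arrays and HBB on 1. That of the 3 endothelial markers was 309 to 343 in control and 372 to 459 in the other groups. The part of these levels in the results was not tested.

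SLC7A5 and SLC3A2, the light and heavy chain of one exchanger, were the members whose transcripts fell. Both were lower in each of the other 3 groups than in control, with the lowest means in ErbB2 cells. The gene SLC7A5 (gene ID 8140) lies at chr16:87830023-87869507 and SLC3A2 (gene ID 6520) at chr11:62856109-62888860 in GRCh38.p14. The 250 bases before a RefSeq start of each are printed because both genes were lower than in control, with capitals for a motif match. The minus strand of chr16:87869508-87869757 is shown for SLC7A5, and the plus strand of chr11:62881449-62881698, 1 of 3 starts, for SLC3A2.
SLC7A5: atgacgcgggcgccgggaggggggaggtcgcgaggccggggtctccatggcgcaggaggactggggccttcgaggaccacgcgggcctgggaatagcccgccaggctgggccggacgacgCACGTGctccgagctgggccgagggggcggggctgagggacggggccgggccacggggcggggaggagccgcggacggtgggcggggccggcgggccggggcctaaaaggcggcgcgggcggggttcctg
SLC3A2: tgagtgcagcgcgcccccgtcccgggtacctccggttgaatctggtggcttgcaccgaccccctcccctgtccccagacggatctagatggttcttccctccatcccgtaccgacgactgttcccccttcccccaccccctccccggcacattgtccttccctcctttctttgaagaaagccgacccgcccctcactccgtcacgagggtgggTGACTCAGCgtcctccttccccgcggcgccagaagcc
In SLC7A5 the capitals mark an E-box, CACGTG, which starts 130 bases before the start site, a motif bound by MYC and related factors. In SLC3A2 they mark TGACTCAGC, 37 bases before the start site. These letters match the core of the antioxidant response element, TGACNNNGC, bound by NRF2, and overlap TGACTCA, the motif of AP-1 factors. Searched on both strands in the 15 promoters of 8 members, CACGTG was found in 3 promoters, each of another member, against 6.34% of all 35116 promoters of this length, and TGACNNNGC likewise in 3, against 10.9%. The core of the amino acid response element, TGATGNAAN, bound by ATF4, was found in 1 promoter (SLC1A5), against 3.13% of promoters. The other 2 starts of SLC3A2 held none of these letters. A match is a description of the sequence only.

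On the scale of background-corrected, quantile-normalized log2 signal, the 3 control arrays gave 13.96, 14.04 and 13.84 for SLC7A5. The ErbB2 arrays gave 12.54, 12.36 and 12.43, the Cas arrays 13.20, 13.43 and 13.21, and the Cas/ErbB2 arrays 12.71, 12.73 and 12.47. Control arrays were thus highest and Cas arrays next, with no overlap, while ErbB2 and Cas/ErbB2 arrays overlapped. The raw signals, before any scaling, had the same control arrays on top, at 14014 to 15654 against 5652 to 7059 in ErbB2 cells. Raw Cas signals were 8597 to 11158, and Cas/ErbB2 replicate 3 (11293), the array of highest mean signal, lay above them.

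**Figure D1:**
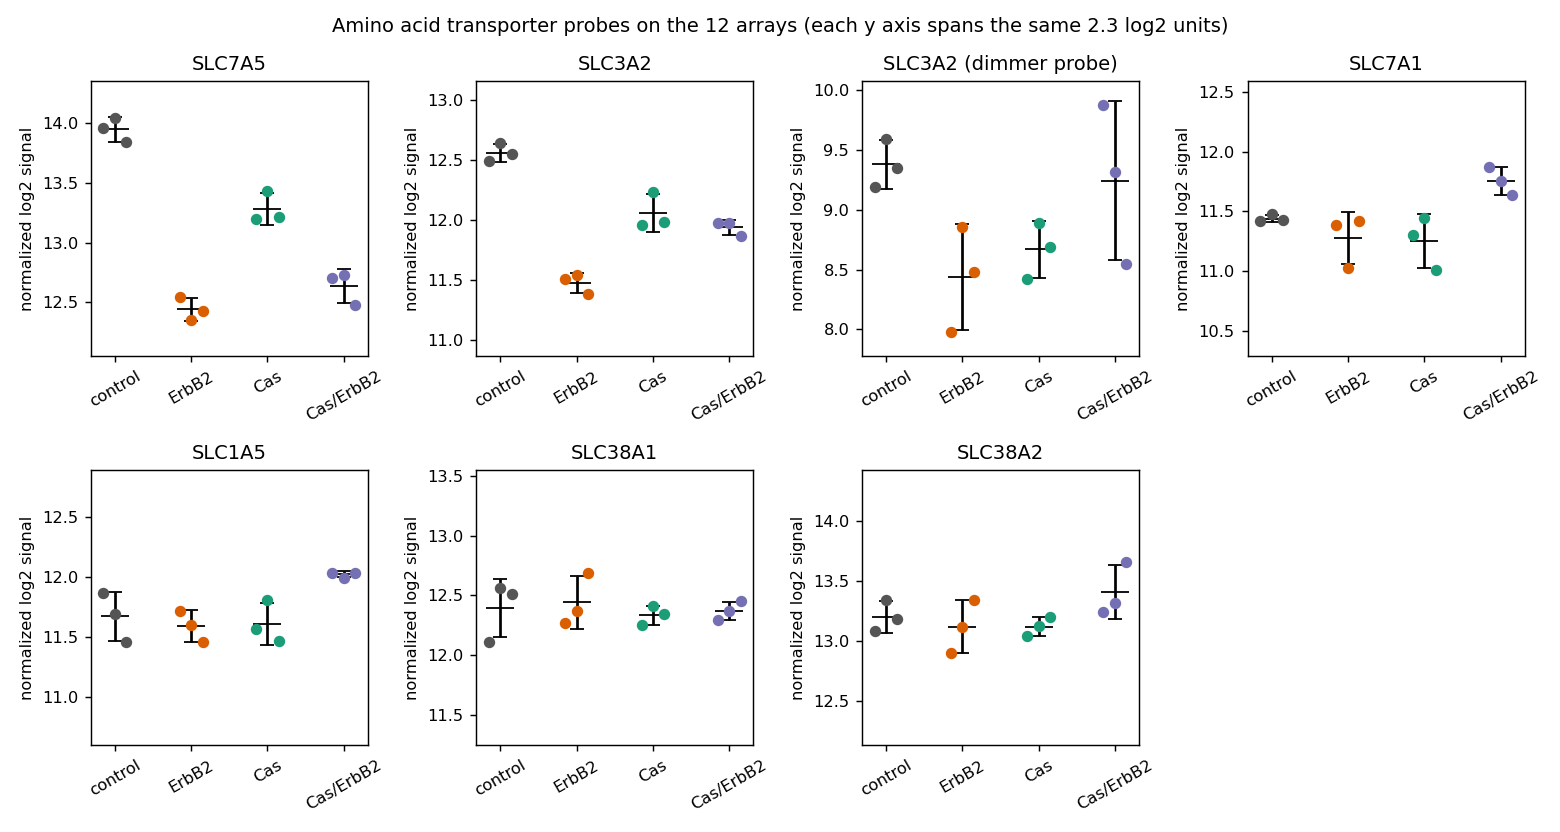
Normalized log2 signal (y axis) of the 7 kept probes in the 4 groups (x axis), with a point for each array and a bar for the group mean with its SD (n = 3). The SLC7A5 panel has control arrays at 13.84 to 14.04 and ErbB2 arrays at 12.36 to 12.54, whereas the SLC38A1 panel has all groups overlapping.

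Tested with limma across all kept probes, SLC7A5 was 2.84-fold lower in ErbB2 cells than in control (log2 change -1.50 ± 0.13 SE, adjusted p = 5.31e-06). It was 1.59-fold lower in Cas cells (log2 change -0.67 ± 0.13, adjusted p = 0.00225) and 2.48-fold lower in Cas/ErbB2 cells (log2 change -1.31 ± 0.13, adjusted p = 8.76e-06). In bulk RNA, fewer cells expressing a gene and less RNA per cell cannot be told apart. The adjusted p in Cas cells was 0.104 when control replicate 3, the array of hybridization II, was the control by itself, with a log2 change of -0.56.

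The brighter SLC3A2 probe gave 12.49, 12.64 and 12.55 on the control arrays and 11.51, 11.53 and 11.38 on the ErbB2 arrays. The Cas arrays gave 11.95, 12.24 and 11.98, and the Cas/ErbB2 arrays 11.98, 11.97 and 11.86. Control arrays were again highest and ErbB2 arrays lowest, but here Cas and Cas/ErbB2 arrays overlapped. In the raw signals the control arrays (5184 to 6246) lay above all others except Cas/ErbB2 replicate 3 (7568), the array of highest mean signal. SLC3A2 was 2.12-fold lower in ErbB2 cells than in control (log2 change -1.09 ± 0.12 SE, adjusted p = 3.34e-05, limma), 1.42-fold lower in Cas cells (log2 change -0.50 ± 0.12, adjusted p = 0.00854) and 1.54-fold lower in Cas/ErbB2 cells (log2 change -0.62 ± 0.12, adjusted p = 0.00149). The Cas difference had an adjusted p of 0.132 against control replicate 3 by itself. The Cas/ErbB2 difference had an adjusted p of 0.123, with a log2 change of -0.38, when both SLC3A2 probes were averaged.

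The dimmer SLC3A2 probe varied more between arrays. It gave 9.19, 9.59 and 9.35 in control, 7.98, 8.86 and 8.48 in ErbB2 cells, 8.42, 8.89 and 8.69 in Cas cells and 9.87, 9.32 and 8.55 in Cas/ErbB2 cells. Control arrays lay above those of ErbB2 and of Cas cells, and Cas/ErbB2 arrays spread across the range of the other groups. The raw signals of this probe were 653 to 987 in control, 640 to 992 in ErbB2, 706 to 947 in Cas and 926 to 1145 in Cas/ErbB2 cells. Control was thus set apart from ErbB2 and Cas cells only in the normalized signal of this probe. Its difference in ErbB2 cells from control (log2 change -0.94 ± 0.31 SE) passed the test (adjusted p = 0.0352, limma) but not in 6 of 25 alternative settings, where the adjusted p reached 0.264. Among these were the settings without ErbB2 replicate 1 (0.130), without ErbB2 replicate 3 (0.0732), and without control replicate 1 (0.0571), 2 (0.116) or 3 (0.0780). The differences in Cas cells (log2 change -0.71, adjusted p = 0.0997) and Cas/ErbB2 cells (log2 change -0.13, adjusted p = 0.739) did not pass.

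The remaining 4 measured members, SLC7A1, SLC1A5, SLC38A1 and SLC38A2, had no difference from control that passed the test. In ErbB2 against control 2 of the 6 measured genes were thus lower and 0 higher, beside 19.8% of the 11205 named genes called lower and 11.3% higher. In Cas against control the counts were again 2 and 0, beside 19.1% lower and 9.92% higher. In Cas/ErbB2 against control they were 2 and 0, beside 29.4% lower and 17.5% higher. With 6 genes measured and shares of this size among all genes, nothing particular to the members is read from these counts. The median log2 change of the 6 genes was -0.12, -0.13 and 0.09 in these comparisons, beside -0.06, -0.07 and -0.10 over all named genes.

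**Figure D2:**
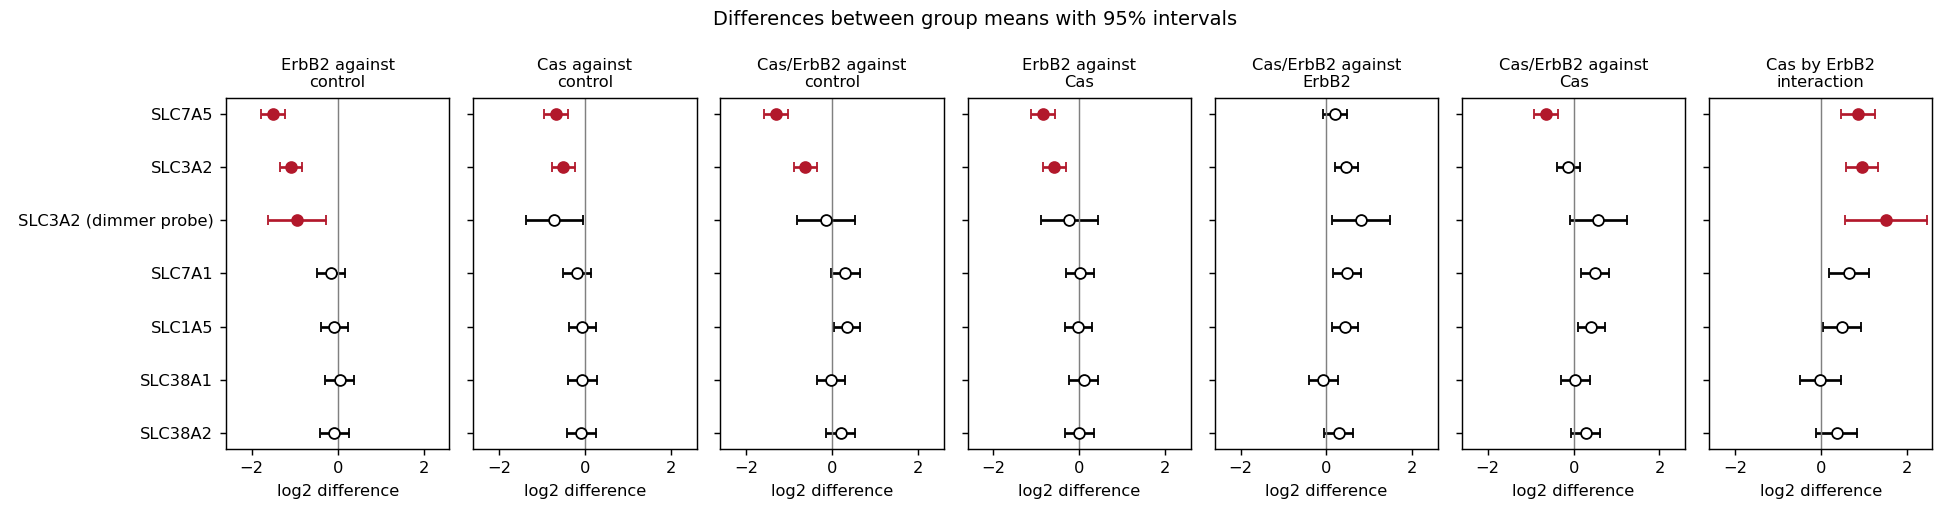
Log2 differences (x axis) of the 7 kept probes (y axis) in the 7 comparisons, with 95% intervals from the fit. Filled red points passed an adjusted p of 0.05, among them SLC7A5 at -1.50 in ErbB2 against control, and open points did not.

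The other 3 groups, whose arrays carry no hybridization mark, were compared with each other. SLC7A5 was 1.79-fold lower in ErbB2 than in Cas cells (log2 difference -0.84 ± 0.13 SE, adjusted p = 0.00677, limma) and 1.56-fold lower in Cas/ErbB2 than in Cas cells (log2 difference -0.64 ± 0.13, adjusted p = 0.00714). The latter was lost when the 6 arrays of these 2 groups were fitted alone (adjusted p = 0.0664). Cas/ErbB2 and ErbB2 cells differed by 0.19 ± 0.13, with a 95% interval of -0.09 to 0.47 and an adjusted p of 0.4996. SLC7A5 thus took similar normalized values in both groups labelled with ErbB2, below those of Cas cells.

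SLC3A2 (brighter probe) was 1.499-fold lower in ErbB2 than in Cas cells (log2 difference -0.58 ± 0.12 SE, adjusted p = 0.0387, limma). This call held in 10 of 28 alternatives. It was lost on leaving out any 1 array other than Cas/ErbB2 replicate 3, with adjusted p from 0.0501 to 0.159 (0.105, 0.101 and 0.152 without ErbB2 replicates 1 to 3, 0.0856, 0.159 and 0.0894 without Cas replicates 1 to 3, 0.0501 and 0.0514 without Cas/ErbB2 replicates 1 and 2, and 0.0555, 0.0641 and 0.0711 without control replicates 1 to 3). In Cas/ErbB2 cells the normalized SLC3A2 signal was higher on all 3 arrays than on any ErbB2 array, by 0.46 ± 0.12, with an adjusted p of 0.0711. Without Cas/ErbB2 replicate 3, whose raw signal was the brightest, that difference was 0.50 with an adjusted p of 0.0318. The raw signals of these groups overlapped, at 3486 to 7568 in Cas/ErbB2 and 2941 to 4113 in ErbB2 cells. The normalized signals of the dimmer probe overlapped too. How many of all genes separate in this way was not counted. Cas/ErbB2 and Cas cells differed by -0.12 ± 0.12, with a 95% interval of -0.39 to 0.14 (adjusted p = 0.625).

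Within these comparisons 0 to 2 of the 6 measured genes were called, and smaller shares of all named genes were called than against control. In ErbB2 against Cas 2 of the 6 measured genes were lower, SLC7A5 and SLC3A2, and 0 were higher, beside 0.527% of named genes lower and 1.2% higher. For Cas/ErbB2 against ErbB2, 0 of 6 passed with limma, beside 1.68% lower and 1.29% higher. The lowest adjusted p there were 0.0711 (SLC3A2), 0.132 (SLC7A1) and 0.148 (SLC1A5). In Cas/ErbB2 against Cas 1 was lower, SLC7A5, and 0 were higher, beside 6.64% lower and 5.61% higher.

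The single changes of each chain did not add up to the change in cells labelled with both. For SLC7A5 the changes of ErbB2 and of Cas cells from control sum to -2.17 on the log2 scale, and the Cas/ErbB2 change was -1.31. For SLC3A2 the sum is -1.59, and the Cas/ErbB2 change was -0.62. The interaction, the Cas/ErbB2 change from Cas minus the ErbB2 change from control, was 0.86 ± 0.18 SE for SLC7A5 (adjusted p = 0.00653, limma) and 0.97 ± 0.17 for SLC3A2 (adjusted p = 0.00217). The dimmer SLC3A2 probe gave 1.52 ± 0.43 (adjusted p = 0.0330), a call kept in 15 of 24 alternatives. It was lost without ErbB2 replicate 1 (adjusted p 0.0789) or 3 (0.0577), Cas replicate 1 (0.0777) or 3 (0.0598), Cas/ErbB2 replicate 1 (0.0530) or 2 (0.0563), and control replicate 2 (0.0853) or 3 (0.0652). Of the 6 genes 2 had a higher interaction call and 0 a lower one, beside 11.1% and 4.42% of named genes. The term rests on the control arrays, so hybridization cannot be told apart from it either, and with control replicate 3 by itself as control the SLC7A5 term was 0.75 with an adjusted p of 0.0950.

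**Figure D3:**
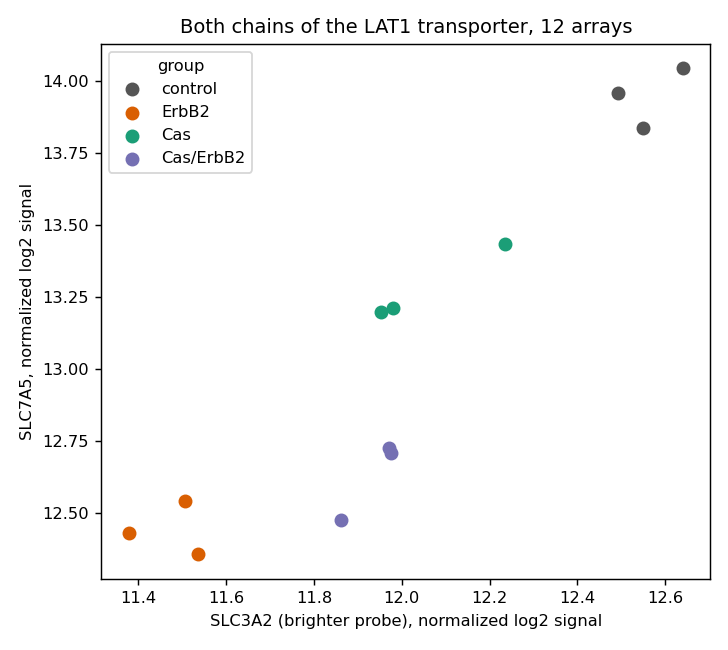
Normalized log2 signal of SLC7A5 (y axis) against the brighter SLC3A2 probe (x axis) on the 12 arrays, coloured by group. Control arrays lie at the upper right (SLC7A5 at 13.84 to 14.04), ErbB2 arrays at the lower left (12.36 to 12.54), and at like SLC3A2 values the Cas/ErbB2 arrays (12.47 to 12.73) lie below the Cas arrays (13.20 to 13.43).

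The log2 changes of the light chain and of the brighter heavy chain probe were set side by side. From control, the log2 change of SLC7A5 lay below that of SLC3A2 by 0.42 in ErbB2 cells (SLC7A5 change minus SLC3A2 change -0.42), by 0.16 in Cas cells (-0.16) and by 0.69 in Cas/ErbB2 cells (-0.69). Between the other groups this difference of changes was -0.25 for ErbB2 against Cas, -0.27 for Cas/ErbB2 against ErbB2 and -0.52 for Cas/ErbB2 against Cas. In each of these 6 comparisons the per-array log2 differences of the chains did not overlap between groups. The two-sided exact permutation test gave 0.1 each time, the smallest p that 3 against 3 arrays allow, so that none could pass 0.05. These comparisons share the same 4 groups. How many pairs of genes separate in this way was not counted, so nothing particular to the chains is read from it. In Cas cells the difference was -0.06 with both SLC3A2 probes averaged, -0.07 against control replicate 3 by itself, and 0.04 in the other direction with the dimmer probe. Signals of different probes have no common scale, so only these changes were compared.

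The profile of SLC7A5 over the 12 arrays, each gene centred on its own mean, was closest to that of MAOA, a monoamine oxidase, among 6560 other genes detected on all arrays (root-mean-square difference 0.14 on the log2 scale), followed by FBXL16 (0.18). SLC3A2 ranked 41st for SLC7A5, at 0.27, while SLC7A5 had rank 196 for SLC3A2. The profile of SLC3A2 was closest to those of TSC22D3, a glucocorticoid-induced gene, and TIMP3, an inhibitor of metalloproteinases, both at 0.17. The other 4 measured members lay at 0.63 to 0.67 from SLC7A5. These distances describe 12 arrays that share their group structure.

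SLC7A1 and SLC1A5, carriers of cationic amino acids and of glutamine with other neutral ones, had their highest normalized signals in Cas/ErbB2 cells. SLC7A1 gave 11.87, 11.75 and 11.64 there, against 11.42, 11.48 and 11.43 in control, 11.39, 11.03 and 11.42 in ErbB2 cells and 11.30, 11.45 and 11.01 in Cas cells. SLC1A5 gave 12.04, 12.00 and 12.04 in Cas/ErbB2 cells, against 11.87, 11.70 and 11.46 in control, 11.72, 11.60 and 11.46 in ErbB2 cells and 11.57, 11.81 and 11.47 in Cas cells. For both genes all 3 Cas/ErbB2 arrays lay above all 9 others in the normalized signal, and the other 3 groups overlapped. The raw signals of Cas/ErbB2 and ErbB2 arrays overlapped, at 3057 to 6573 against 3020 to 3126 for SLC7A1. For SLC1A5 they were 3543 to 8532 against 3088 to 4282. The separation was thus seen only after normalization. How many of all genes separate in this way was not counted, so nothing particular to these genes is read from it.

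These differences did not pass the test over all probes. SLC7A1 differed between Cas/ErbB2 and Cas cells by 0.50 ± 0.15 (95% interval 0.17 to 0.83, adjusted p = 0.0588, limma), from ErbB2 cells by 0.47 ± 0.15 (adjusted p = 0.132) and from control by 0.31 ± 0.15 (adjusted p = 0.109). SLC1A5 differed from Cas cells by 0.41 ± 0.14 (95% interval 0.10 to 0.72, adjusted p = 0.0985), from ErbB2 cells by 0.43 ± 0.14 (adjusted p = 0.148) and from control by 0.35 ± 0.14 (adjusted p = 0.0627). Against Cas cells, SLC7A1 passed in 7 of 28 alternatives (adjusted p 0.0196 to 0.04996), among them those without Cas/ErbB2 replicate 3 (0.56, adjusted p = 0.0429) and ErbB2 replicate 2 (0.50, adjusted p = 0.04996). Against control, SLC1A5 passed as higher in 8 of 27 alternatives (adjusted p 0.0314 to 0.0462), among them that without control replicate 1 (0.45, adjusted p = 0.0383), and as lower in 1, scaling on the median of all probes. The interaction of SLC7A1 was 0.66 ± 0.21 (adjusted p = 0.0564) and passed in 9 of 26 alternatives (adjusted p 0.000112 to 0.0495), among them those without Cas replicate 2 (0.76, adjusted p = 0.0442) or Cas/ErbB2 replicate 3 (0.72, adjusted p = 0.0433), and that of SLC1A5 was 0.49 ± 0.20 (adjusted p = 0.126). SLC7A1 and SLC1A5 had similar profiles, at a root-mean-square difference of 0.16, rank 24 among 6560 genes for SLC7A1 and rank 43 for SLC1A5.

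The sodium-coupled carriers SLC38A1 and SLC38A2 differed little between groups. SLC38A1 gave 12.11, 12.56 and 12.51 in control, 12.27, 12.37 and 12.69 in ErbB2 cells, 12.25, 12.41 and 12.34 in Cas cells and 12.29, 12.37 and 12.45 in Cas/ErbB2 cells. All 4 groups overlapped, and the differences between groups ran from -0.07 to 0.11. The widest 95% limits over these 6 comparisons were -0.41 and 0.44. SLC38A2 gave 13.08, 13.35 and 13.18 in control, 12.90, 13.12 and 13.35 in ErbB2 cells, 13.04, 13.13 and 13.20 in Cas cells and 13.24, 13.32 and 13.66 in Cas/ErbB2 cells. The Cas/ErbB2 arrays lay above the Cas arrays in the normalized signal, though not in the raw signal, and overlapped the other groups. Cas/ErbB2 cells differed by 0.29 ± 0.16 from ErbB2 cells (adjusted p = 0.394, limma), 0.29 ± 0.16 from Cas cells (adjusted p = 0.307) and 0.20 ± 0.16 from control (adjusted p = 0.301).

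The probes of SLC7A11, SLC1A4 and SLC43A1 were detected on 0 of 12 arrays, with detection p of at least 0.657, 0.256 and 0.345. They give only a bound, their signal not standing above the negative controls, and no fold is given for them. SLC7A11, at chr4:138164097-138242349, is the cystine carrier that shares SLC3A2 with SLC7A5, and a single probe stood for it here. A further SLC38A1 probe was detected on 2 control arrays only and was not tested. For these genes a difference was not detectable at this signal.

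The other amino acid transporters, a list of 43 genes, had 18 genes that could be tested, of which 3 were detected on all 12 arrays. In ErbB2 cells 3 were higher and 4 lower than in control, in Cas cells 4 and 6, and in Cas/ErbB2 cells 5 and 7. Beside 11.3% higher and 19.8% lower, 9.92% and 19.1%, and 17.5% and 29.4% of all named genes, the counts in ErbB2 cells lay near the background. Of the lower calls 0 were among the 3 genes detected on all arrays, and control was the group with most probes detected. SLC7A6, a carrier that also pairs with SLC3A2, was detected on the 3 control arrays and on none of the other 9, and was at least 2.04-, 2.02- and 1.93-fold lower in ErbB2, Cas and Cas/ErbB2 cells. These bounds set the control mean against the lowest signal of any detected probe on each array of the other group. Where the gene's own signal was higher than that, its own signal was used. SLC43A2, a relative of SLC43A1, was likewise detected in control only, with bounds of 1.08-, 1.07- and 1.03-fold. SLC38A9 was at least 1.42-fold lower in ErbB2 cells, and SLC38A6 at least 1.501-fold lower in Cas cells. These 4 genes passed the detection filter only with the control arrays, where they were high, so their calls are a description and no p is given. SLC7A2, a carrier of cationic amino acids, was at least 1.60-fold lower in Cas cells (adjusted p = 0.00442, limma).

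A few calls of this list had detected signal on both sides. SLC7A8, or LAT2, which also pairs with SLC3A2, was lower in Cas/ErbB2 cells, where 1 of 3 arrays detected it, than in control (log2 change -1.69 ± 0.38 SE, adjusted p = 0.00385, limma). SLC6A15, a sodium-coupled carrier of branched-chain amino acids, was higher in Cas/ErbB2 than in Cas cells by 0.72 ± 0.15 (adjusted p = 0.0103), and SLC38A10 was lower by 0.68 (log2 difference -0.68 ± 0.17, adjusted p = 0.0288). These were the 1 higher and 1 lower call of 18 in Cas/ErbB2 against Cas, while ErbB2 against Cas and Cas/ErbB2 against ErbB2 had 0 of 18. The interaction had 3 higher and 1 lower call of 18, beside 11.1% and 4.42% of named genes. Its higher calls were SLC7A6, SLC38A9 and SLC43A2, which passed the detection filter only with the control arrays, so nothing is read from them. The list's median change was -0.08, -0.25 and -0.33 from control in ErbB2, Cas and Cas/ErbB2 cells.

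Genes of the amino acid response, most of them known ATF4 targets, were called higher in cells labelled with ErbB2, where SLC7A5 and SLC3A2, also known targets of ATF4, were lower. Of 26 listed genes 24 were tested, 18 of them detected on all 12 arrays. In ErbB2 cells 9 were higher and 3 lower than in control, in Cas cells 2 and 4, and in Cas/ErbB2 cells 14 and 2. The shares of all named genes were 11.3% higher and 19.8% lower, 9.92% and 19.1%, and 17.5% and 29.4%, so that the counts in Cas cells lay near them. STC2, a secreted glycoprotein, was higher by 2.49 ± 0.15 in ErbB2 and 3.76 ± 0.15 in Cas/ErbB2 cells (log2 changes from control, adjusted p = 1.55e-06 and 5.52e-08, limma). TRIB3, a pseudokinase that restrains the response, was higher by 2.18 ± 0.16 and 3.06 ± 0.16 (adjusted p = 3.04e-06 and 2.85e-07). The list's median was 0.21, -0.09 and 0.51 in the 3 comparisons with control, beside -0.06, -0.07 and -0.10 over all named genes.

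Among ErbB2, Cas and Cas/ErbB2 cells the same list had higher calls only, with 6 of 24 in ErbB2 against Cas, 7 in Cas/ErbB2 against ErbB2 and 14 in Cas/ErbB2 against Cas, and 0 lower. Of all named genes 1.2%, 1.29% and 5.61% were higher in these comparisons. Among the 18 response genes detected on all 12 arrays, 5, 6 and 12 were higher. ASNS, the asparagine synthetase, was higher by 1.86 ± 0.20 in ErbB2 than in Cas cells (adjusted p = 0.000796, limma), by 1.47 ± 0.20 in Cas/ErbB2 than in ErbB2 cells (adjusted p = 0.00412) and by 3.33 ± 0.20 in Cas/ErbB2 than in Cas cells (adjusted p = 1.70e-06). PHGDH, which opens serine synthesis, was higher by 1.71 ± 0.17 in Cas/ErbB2 than in ErbB2 cells (adjusted p = 0.000634). CBS, an enzyme of transsulfuration, was not detected in Cas or control cells and was at least 8.14- and 11.2-fold higher in Cas/ErbB2 cells, the arrays through which it passed the detection filter.

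Not all genes of the response rose. DDIT3, which encodes the stress factor CHOP, was at least 3.50-fold lower in Cas cells, where it was not detected, than in control (adjusted p = 4.29e-05, limma), and fell in ErbB2 cells, where 2 of 3 arrays detected it, by 1.68 on the log2 scale (± 0.26 SE, adjusted p = 0.000407). PSAT1, an enzyme of serine synthesis, fell in Cas cells by 0.79 (± 0.16, adjusted p = 0.00251) and had an interaction of 2.01 ± 0.22 (adjusted p = 0.000206). ALDH18A1, which starts proline synthesis, was lower in Cas cells (log2 change -1.32 ± 0.46, adjusted p = 0.0480). The interaction had 7 higher and 0 lower calls of 24, beside 11.1% and 4.42% of all named genes. Of the 18 response genes detected on all 12 arrays, 5 were higher and 0 lower. Among all genes higher was also the more frequent sign, so the sign shared with SLC7A5 and SLC3A2 is not read as a link. In the comparison of Cas/ErbB2 with Cas cells, SLC7A5 was lower while 14 of 24 response genes were higher. The brighter SLC3A2 probe was not called there (-0.12 ± 0.12, adjusted p = 0.625, limma). Since the list was chosen with earlier results of these data known, this contrast is a description only.

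**Figure D4:**
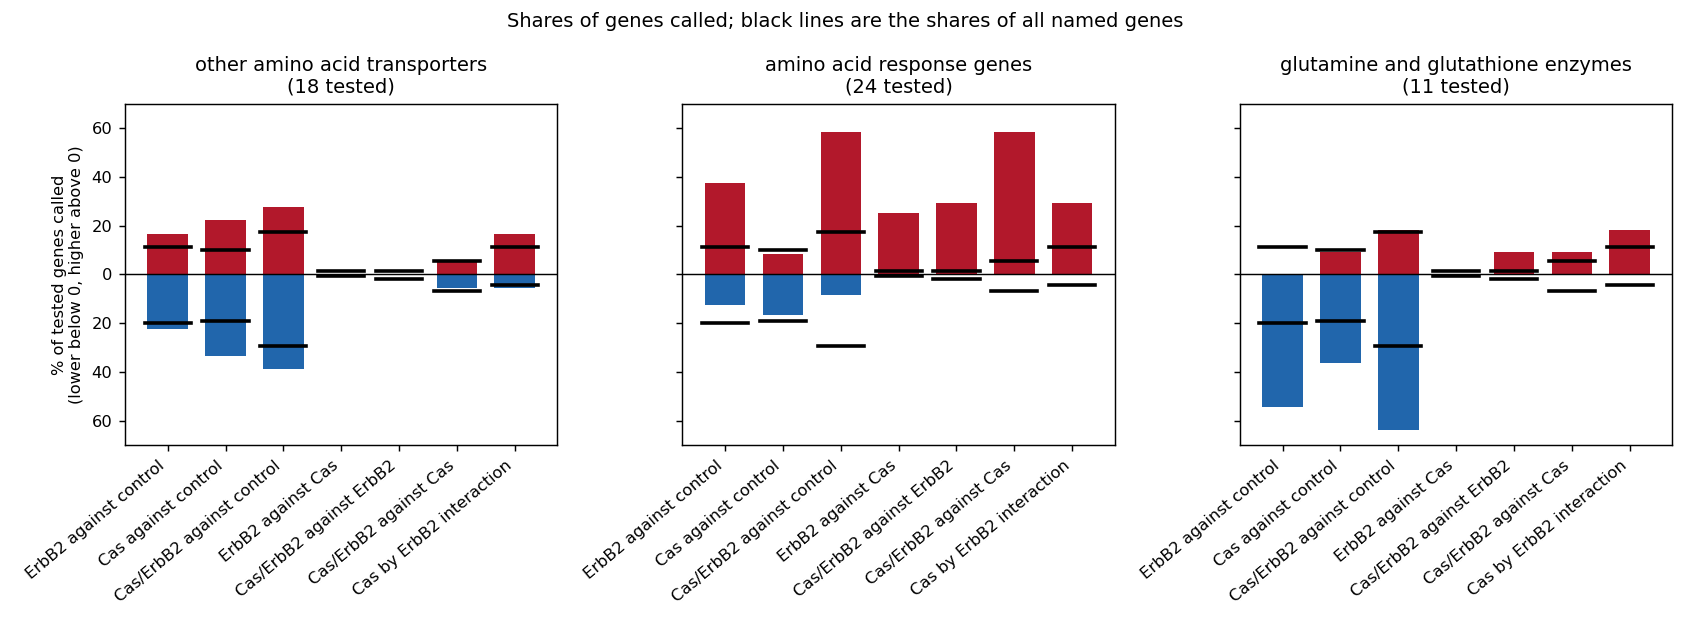
Percentage of the tested genes of 3 lists called higher (red, above 0) or lower (blue, below 0) in the 7 comparisons (x axis), with black lines for the percentage of all named genes. In Cas/ErbB2 against Cas, 14 of 24 response genes were higher beside 5.61% of all named genes, whereas 1 of 18 other transporters was. Of the 18 response genes detected on all 12 arrays, 12 were higher.

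Among enzymes that use glutamine and make glutathione, more calls were lower than higher in each comparison with control, as among all named genes. Of 15 listed genes 11 were tested, 10 of them detected on all 12 arrays. In ErbB2 cells 0 were higher and 6 lower, in Cas cells 1 and 4, and in Cas/ErbB2 cells 2 and 7, beside 11.3% higher and 19.8% lower, 9.92% and 19.1%, and 17.5% and 29.4% of all named genes. Of the 10 genes detected on all 12 arrays, 0 were higher and 5 lower, 1 and 3, and 2 and 6. The shared sign is therefore not read as particular to these enzymes. The median changes were -0.38, -0.28 and -0.47, beside -0.06, -0.07 and -0.10 over all named genes. GLUD1, glutamate dehydrogenase, fell by 0.58 in ErbB2 cells and by 0.68 in Cas cells (both ± 0.13 SE, adjusted p = 0.00628 and 0.00269, limma). GLUL, glutamine synthetase, fell by 0.58 in ErbB2 cells (± 0.16, adjusted p = 0.0168), and GOT2, the mitochondrial aspartate aminotransferase, fell by 0.66 in Cas/ErbB2 cells (± 0.13, adjusted p = 0.00144).

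GCLC, the catalytic subunit of the enzyme that limits glutathione synthesis, rose instead, by 0.66 ± 0.16 in Cas and 0.96 ± 0.16 in Cas/ErbB2 cells (adjusted p = 0.00866 and 0.000489, limma). CHAC2, which breaks glutathione down, was detected on all 3 control arrays and 1 Cas/ErbB2 array, and was at least 1.11- and 1.10-fold lower in ErbB2 and Cas cells. It passed the detection filter only with the control arrays. Among ErbB2, Cas and Cas/ErbB2 cells OPLAH, an enzyme of glutathione turnover, was the 1 called gene, higher in Cas/ErbB2 cells by 0.62 ± 0.14 than in ErbB2 cells (adjusted p = 0.0469) and by 0.68 ± 0.14 than in Cas cells (adjusted p = 0.00992). ErbB2 against Cas had 0 of 11 calls, and the interaction had 2 higher, OPLAH (0.90 ± 0.20, adjusted p = 0.00929) and GLUD1 (0.68 ± 0.19, adjusted p = 0.0296).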

How the data were processed

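Per the labels, trizol-extracted RNA of 12 samples was hybridized to Illumina bead arrays, and samples were grouped by title. Per the file headers, the deposited table holds an average bead signal, an intensity without background subtraction or normalization, with a detection p-value for each probe on each array. The authors' second deposited table holds processed intensities with a median of 439.61 on every array and the probe order of the raw signals (Spearman 1). The sources used here do not name the software, and 0 sample columns went unused.

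Correction by neqc (limma 3.58.1, R 4.3.3, background from detection p-values, offset 16) gave quantile-normalized log2 signals. A detection p under 0.05 was required on 3 or more arrays (19777 probes). Symbols came from the platform table (30111 probes with 1 symbol, 8 with several, 17105 with none), 30072 of them updated by gene ID, and each gene was represented by its brightest such probe. A model of 4 group means over 12 arrays with empirical Bayes moderation gave 7 comparisons, adjusted by Benjamini-Hochberg over all kept probes. The number of arrays limits the precision.

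The 9 members, the lists of other transporters, response genes and enzymes, the markers and the motifs were chosen with earlier results of these data known. Named are all members, up to 3 called genes of each list with the largest changes per comparison, and, for members whose group means span at least 1 on the log2 scale, the 2 nearest profiles. Promoter sequences are from RefSeq (GRCh38.p14, 8 members matched). The steps were tested on simulated data. Alternatives were other background corrections, scalings, filters and probe rules, the deposited processed intensities, fewer arrays, blocks, moderation, array weights and leaving out each array. Fitting 9 arrays with control left out and scaling on the median of all probes were chosen after seeing the data. Python 3.11.15 with matplotlib 3.10.9 drew the figures.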

Additional observations from a re-analysis of the deposited data

Results flagged for a closer look

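The difference between the ErbB2 change in the presence of Cas and without it passed its own test (limma, Benjamini-Hochberg) for both chains of the LAT1 exchanger. The interaction was 0.86 on the log2 scale for SLC7A5 (adjusted p = 0.00653), with ErbB2 changes of -1.50 from control and -0.64 from Cas cells. It was 0.97 for the brighter SLC3A2 probe (adjusted p = 0.00217), with ErbB2 changes of -1.09 and -0.12. For the dimmer SLC3A2 probe it was 1.52 (adjusted p = 0.0330), with ErbB2 changes of -0.94 and 0.58. All 3 rest on the control arrays, whose hybridization cannot be told apart from their group.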

How the results depend on the processing

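The changes of the 7 probes were recomputed in 1323 combinations of probe, comparison and alternative. Of these 1230 kept their side of the threshold, 46 of them uncalled differences whose sign turned, while 40 lost a call, 48 gained one and 5 reversed. The 5 reversals all came with scaling on the median of all probes, which moved the median of all probes by -1.46, -1.67 and -1.62 in the comparisons of ErbB2, Cas and Cas/ErbB2 with control and by 1.44 in the interaction: SLC38A1 -1.49 in ErbB2 cells and 1.55 in the interaction, and SLC7A1 -1.52, SLC1A5 -1.47 and SLC38A2 -1.59 in Cas/ErbB2 cells. That setting called 6 members in each comparison with control and in the interaction (2 each as reported), and 0 in ErbB2 against Cas and in Cas/ErbB2 against Cas. Scaling on probes detected on all arrays moved the median by 0.21, 0.20, 0.27 and -0.22 and called 2, 2, 3 and 2 members there. Against control replicate 3 by itself, 0 members were called in Cas cells and 1 in the interaction. With probes averaged per gene, 1 was called in Cas/ErbB2 cells. In ErbB2 against Cas (2 reported) 1 was called with scaling on detected probes, without a filter, with averaged probes, with only the arrays compared, with control replicate 3 by itself and without control arrays, and 1 to 2 on leaving out an array. In Cas/ErbB2 against ErbB2 (0 reported) 1 was called without background correction, with the processed intensities, with detection on all 12 arrays, and with trend and robust moderation, and 0 to 1 on leaving out an array. In Cas/ErbB2 against Cas (1 reported) 2 were called with normexp, without background correction and with the processed intensities, 3 with detection on all 12 arrays and with trend and robust moderation, 0 with only the arrays compared, and 1 to 2 on leaving out an array. Leaving out an array gave 2 members each for ErbB2 and Cas against control, and 2 to 3 for Cas/ErbB2 against control and for the interaction. SLC7A5 in ErbB2 and in Cas/ErbB2 cells and SLC3A2 in ErbB2 cells were lower than control in 27 of 27 alternatives. Where a setting changed a call, the cause was not tested. Over all probes the calls ranged from 2367 to 16342 (6306 reported) in ErbB2 cells, from 2114 to 16736 (6083) in Cas cells and from 3985 to 16433 (9178) in Cas/ErbB2 cells against control, from 65 to 474 (269) for ErbB2 against Cas, 20 to 2141 (469) for Cas/ErbB2 against ErbB2, 476 to 2985 (2016) for Cas/ErbB2 against Cas and 930 to 14819 (3192) for the interaction. The 2141 came without Cas/ErbB2 replicate 3. Same-numbered samples deviated together in 8 of 18 pairs (correlation over 0.1, range -0.08 to 0.18), so the numbers were not taken to pair the samples. No pair of different numbers passed 0.09, and 8 of 12 arrays correlated best with their own number, a hint from the data and not from the design. The replicate block called the same number of members in every comparison (2, 2, 2, 2, 0, 1 and 2) and 6441, 6225, 9430, 261, 393, 2060 and 3311 probes. The random block of hybridization had a consensus correlation of -0.09. SLC7A11, SLC1A4 and SLC43A1 were limited by signal at background level.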
